A study of Caenorhabditis elegans with 3 samples.

Results

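Collagen messenger RNAs were examined among the RNA fragments crosslinked to DCR-1, the only Dicer of Caenorhabditis elegans. Members were the cuticle and basement membrane collagen genes (numbered col genes, named rol, sqt, bli and dpy collagens, emb-9 and let-2) that had a same-strand cluster on a coding transcript in any of the 5 deposited cluster lists. There were 43 such genes, out of 2367 genes with an mRNA exon cluster in any list and out of 178 collagen names of this kind in a reference table of gene names. Of the 43, 37 carried a numbered col name and 6 were emb-9, let-2, dpy-5, dpy-13, sqt-1 and sqt-3. The membership rule used names and the presence of a cluster, so that a member has a cluster in some list is not a result.

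The worms were whole young adults of a strain labelled FLAG:DCR-1, called a rescue strain in the series text, labelled with 4-thiouridine and irradiated with UV light. In this assay, PAR-CLIP, a crosslinked thiouridine is read as a T-to-C conversion, and overlapping reads are joined into clusters. T1/V1 replicates 1 and 2 were labelled with RNases T1 and V1 and carried a custom 3' adapter, and T1 replicate 3 was labelled with RNase T1 and carried the default adapter, so nuclease and adapter cannot be told apart. The series text names both RNases for the lysate without setting replicate 3 apart. All 3 libraries came from the same strain and stage, and no library from untagged or unlabelled worms was analysed here. The labels do not say that the libraries came from separate cultures, and the promoter that drives the transgene is not given in them. The 3 library lists held 399, 377 and 1304 clusters with 7829, 10834 and 24992 reads, and the pooled consensus and conservative lists held 4705 and 2508 clusters with 92004 and 78157 reads.

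Collagens are triple-helical proteins of the extracellular matrix. In the nematode, the epidermis secretes a large family of small cuticle collagens anew at each moult, and different members are made at different larval stages and in the adult. Mutants of single cuticle collagens are short (dumpy), helically twisted (roller), squat or blistered, and these phenotypes gave the genes their names. The basement membranes under muscle and epidermis instead contain type IV collagen, which is built from the long chains encoded by emb-9 and let-2. The mRNAs of these genes are not classical substrates of Dicer, which cuts double-stranded RNA into small RNAs.

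In the consensus list, 39 collagen genes held 79 clusters with 1514 reads and 531 conversions. The median collagen cluster had 10 reads (exact 95% interval of the median 6 to 13), against 4 reads (4 to 4) for the other 3282 mRNA exon clusters. Collagen clusters thus made up 2.35% of the mRNA exon clusters of the list (exact interval 1.87% to 2.92%) and 6.44% of their reads (6.13% to 6.76%). These intervals cover counting error only. For reads they are too narrow, since PCR copies and reads of the same cluster are not independent. A median collagen gene held 18 reads, against 5 reads for the other 2137 genes of the list. No resampling over clusters or genes was made, so these differences are descriptions of the lists. Transcript abundance was not measured in these libraries, and its part in the read counts was not tested. In whole worms, fewer cells of a type and less RNA per cell cannot be told apart.

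The reads were concentrated on a few genes. The 2 genes with the most reads held 26.4% of the collagen reads, the first 5 held 48% and the first 12 held 79.3%, while the other 27 genes shared 314 reads. At the lower end, 12 genes had fewer than 5 reads and 19 genes had a single cluster. The gene col-178, a numbered cuticle collagen, led with 228 reads, followed by col-140 with 172, col-20 with 116 and emb-9 with 115. Next came col-181 with 95, col-119 and col-139 with 78 each, col-184 with 72, col-129 with 67, col-124 with 66, col-81 with 62 and col-122 with 51 reads. Conversions did not follow this order, since col-178 and emb-9 held 182 and 142 of the 531 conversions and the 10 other genes named here held between 2 and 17 each.

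**Figure D1:**
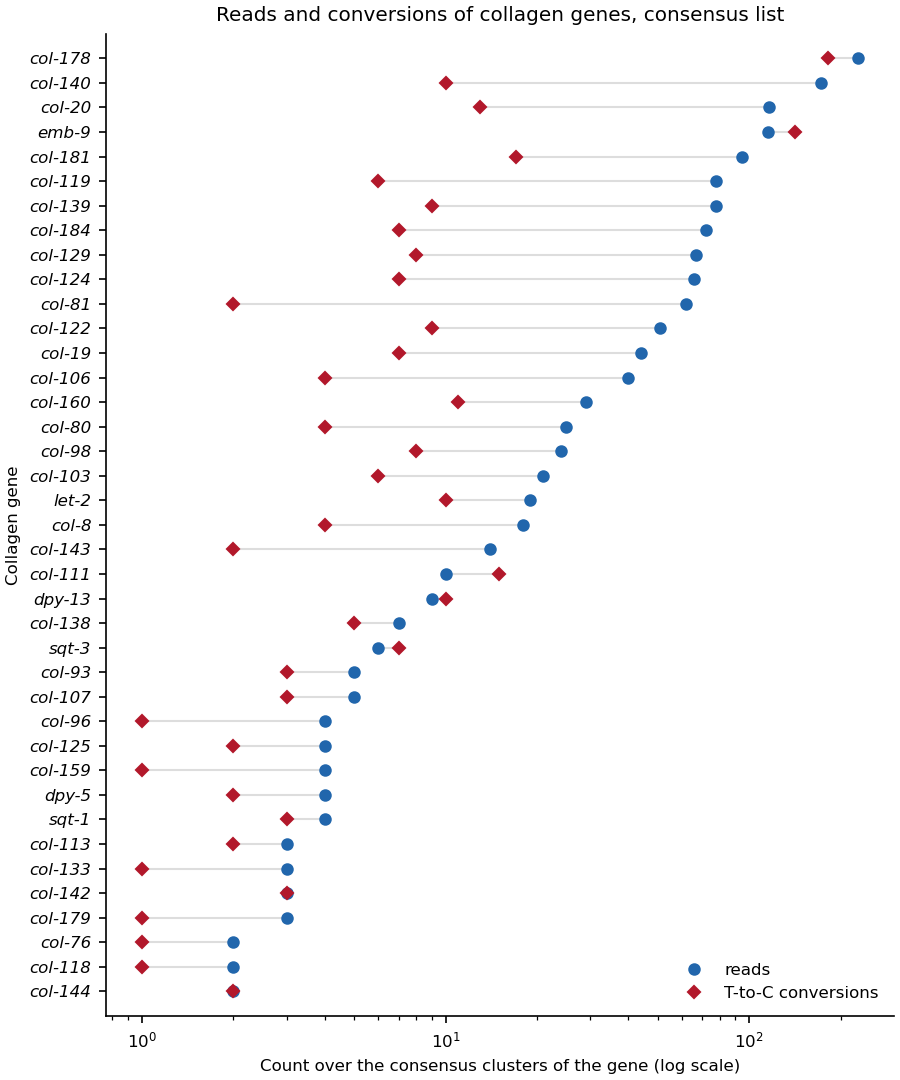
Reads (circles) and T-to-C conversions (diamonds) summed over the consensus clusters of each of the 39 collagen genes of that list, on a log scale, ordered by reads. Conversions reached the number of reads on emb-9 (142 against 115) but stayed far below it on col-140 (10 against 172) and col-81 (2 against 62).

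Most of these clusters lay inside the protein-coding sequence. Of the 79 consensus clusters, 62 were annotated by the authors as coding sequence only, 6 also touched an intron, 5 reached into the 5' UTR and 4 into the 3' UTR, and 2 lay in a 3' UTR alone. The same split was not computed for the other mRNA exon clusters, so it is not read as a trait of collagens. No collagen cluster in any list named a second gene on the same strand, and in all 158 collagen clusters of the 5 lists the authors counted every read as uniquely mapped. Cuticle collagens include close paralogs, so reads of near-identical stretches may still be missing from these counts. Across chromosomes, the 39 genes were spread as 14 on IV, 8 on V, 6 on X, 5 on II, 5 on III and 1 on I. The other mRNA exon clusters, counted as clusters and not as genes, numbered 590, 500, 361, 537, 621 and 673 in the same order.

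The type IV collagen genes of the basement membrane, emb-9 and let-2, both had consensus clusters, and they were unlike each other. For emb-9, which encodes the alpha 1 chain, 111 of its 115 reads lay in a single cluster of 70 nt at chromosome III, 9340459 to 9340528, in coding exon 9 of one annotated transcript and exon 7 of the other. That cluster held 139 conversions at 6 positions, or 125 conversions per 100 reads, with reads and conversions from all 3 libraries. The other 2 consensus clusters of emb-9 held 2 reads each. By number of conversions the 70 nt cluster ranked 5 of the 3361 mRNA exon clusters of the list. For let-2, which encodes the alpha 2 chain, 19 reads were scattered over 7 clusters of 33 to 61 nt between 16380718 and 16385044 on chromosome X, none with more than 6 reads. These held 10 conversions in all. In the library lists, emb-9 had 3 reads in T1/V1 replicate 1, no cluster in T1/V1 replicate 2 and 12 reads in T1 replicate 3, whereas let-2 had 3 reads in T1/V1 replicate 2 and no cluster in the other libraries. The emb-9 cluster of T1 replicate 3 had the same start, end and main crosslink position as the consensus cluster, with 15 conversions in 12 reads, while the one of T1/V1 replicate 1 lay elsewhere, at 9338030 to 9338076.

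Cuticle collagens named for mutant phenotypes had a consensus cluster in 4 of 17 cases, or 23.5%, beside 33 of 159 numbered col genes, or 20.8%. Those found had few reads, with a median of 5 per gene, beside 21 for the numbered col genes found. The share over all genes of the name table was not computed, so neither percentage is read as high or low. None of the 6 annular furrow collagens (dpy-2, dpy-3, dpy-7, dpy-8, dpy-9 and dpy-10), which form the furrows that ring the cuticle, had a cluster in any list. At shares like those above, few of 6 names would be listed, so this absence is not read as a trait of the group. Of the 5 other dumpy collagens, dpy-13 and dpy-5 had a consensus cluster, with 9 and 4 reads. Of the 6 roller, squat and blister collagens, sqt-3 and sqt-1 did, with 6 and 4 reads, and rol-6, sqt-2, bli-1 and bli-2 had none. None of dpy-13, dpy-5, sqt-3 and sqt-1 had a cluster in a library list. Although low in reads, the clusters of dpy-13 and sqt-3 were rich in conversions. The dpy-13 cluster, 113 nt in exon 2 at chromosome IV, 4235789 to 4235901, had 10 conversions at 7 positions, backed by conversions from all 3 libraries. The sqt-3 cluster, 63 nt in exon 1 at chromosome V, 12353031 to 12353093, had 7 conversions in 6 reads, from 2 libraries. At such counts a few reads decide the value.

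Of 6 collagens of the adult cuticle listed (col-7, col-19, col-62, rol-6, bli-1 and bli-2), only col-19 had a cluster in these lists. Of the numbered col genes 20.8% had a consensus cluster, so 1 of 6 is not read as a lack. The numbered col genes were not sorted by stage, and this short list does not stand for all adult collagens. The gene col-19, widely used as a reporter of the adult epidermis, had 44 consensus reads with 7 conversions in 2 clusters. Its first cluster, at the 5' end of the mRNA and reaching into the 5' UTR (chromosome X, 421715 to 421788), had 17 reads and 6 conversions from all 3 libraries. Its second cluster of 258 nt in exon 2 had more reads, 27, but 1 conversion. The col-19 clusters of T1/V1 replicate 1 held 11 reads and those of T1 replicate 3 held 5, and T1/V1 replicate 2 had none.

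Among the numbered col genes, which held 1357 of the collagen consensus reads on 33 genes, clusters took contrasting forms. On col-178 all 228 reads lay in 1 narrow cluster of 71 nt in exon 2, at chromosome X, 11199626 to 11199696. It held 182 conversions at 4 positions, or 79.8 per 100 reads, and ranked 3 of the 3361 mRNA exon clusters by conversions. It also held 546 edits of all kinds, or 2.39 per read, of which conversions made up 33.3%. Summed over clusters, this share was 36.4% in all collagen clusters and 50.5% in the other mRNA exon clusters. The emb-9 cluster had 2.26 edits per read, of which 55.4% were conversions. In T1 replicate 3 the col-178 cluster had the same ends and the same main crosslink position, with 26 reads, 20 conversions and 57 edits. Neither T1/V1 list had a cluster there, although the authors counted reads and conversions from all 3 libraries in the pooled cluster.

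By contrast, col-140 had broad coverage with few conversions. Its 3 consensus clusters covered 892 bases of the 950 bases from chromosome V, 5835856 to 5836805, that is 93.9%. The middle one was 694 nt long, the third longest of the 3361 mRNA exon clusters, and its 123 reads held 4 conversions among 49 edits, or 3.25 conversions per 100 reads. On col-20 a cluster of 343 nt held 80 reads with 3 conversions, on col-119 one of 378 nt held 64 reads with 3 conversions, and on col-81 one of 272 nt held 40 reads with 1 conversion among 37 edits. The col-81 clusters were the poorest in conversions among the 15 collagen genes with at least 20 consensus edits, at 4.44% of edits, ahead of col-140 with 15.2% and col-184 with 16.7%. At the upper end stood emb-9 with 55.5%, let-2 with 47.6% and col-98 with 36.4%. Of the 20 collagen genes with more than 1 consensus cluster, 10 had over 70% of the stretch from their first to their last cluster covered. Neighbouring clusters of a gene lay a median of 127 bases apart, and 11 of the 40 gaps were at most 25 bases wide. Coverage and gaps of this kind were not computed for other genes, so these counts are not read as a trait of collagens.

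**Figure D2:**
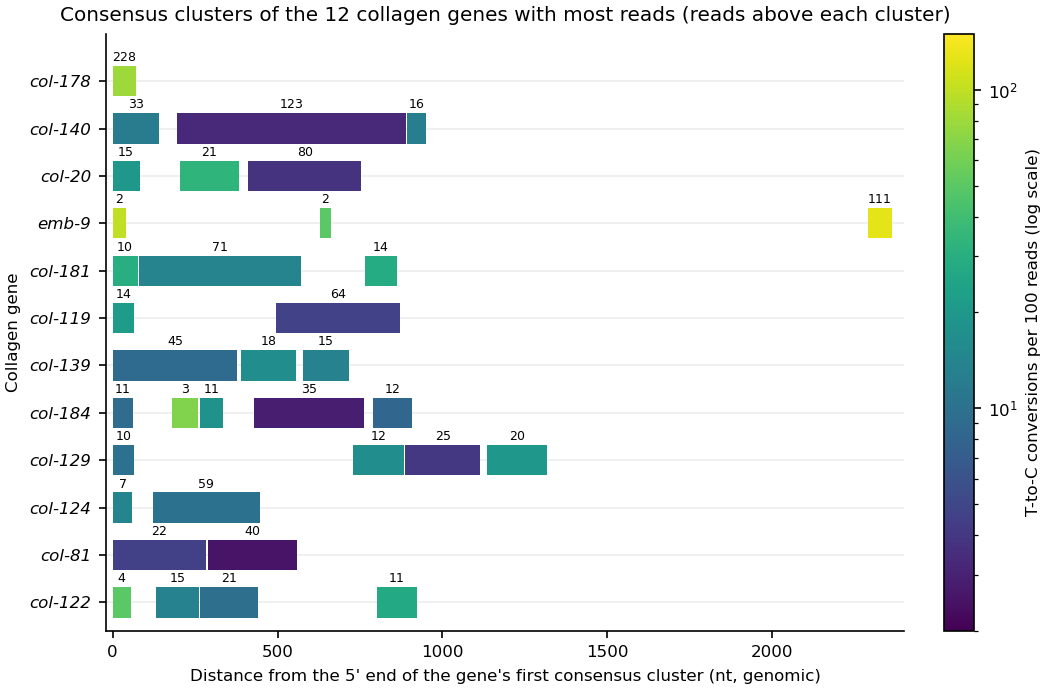
Consensus clusters of the 12 collagen genes with the most reads, drawn 5' to 3' at their genomic distance (nt) from the first cluster, with the reads above each box and conversions per 100 reads as colour on a log scale. The clusters of col-178 (228 reads in 71 nt) and emb-9 (111 reads in 70 nt) are narrow, with many conversions per read. The longest boxes, such as that of col-140 (694 nt), have few per read. Conversions as a share of all edits, 33.3% in the col-178 cluster and 55.4% in the emb-9 cluster, are not drawn.

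By their medians, well covered collagen clusters were longer and poorer in conversions than other mRNA exon clusters of like read count. With 10 to 29 reads, the 31 collagen clusters had a median length of 121 nt and a median of 15 conversions per 100 reads, against 86 nt and 36.4 conversions per 100 reads for 371 other clusters. With 30 or more reads, the 11 collagen clusters had medians of 333 nt and 8.89 conversions per 100 reads, against 193 nt and 22.9 for 91 others. Summed over clusters, conversions per 100 reads were 19.5 in collagen clusters and 53.8 in the others at 10 to 29 reads, but 40.2 and 45.0 at 30 or more reads, where the col-178 and emb-9 clusters were among the 11. With 5 to 9 reads the median was 57.1 conversions per 100 reads in both sets. The median lengths there were 63 nt for 11 collagen clusters and 53 nt for 853 others. The sums over these clusters gave 52.1 conversions per 100 reads in collagen clusters and 65.5 in the others. With 2 to 4 reads the medians were 50 for collagen clusters and 66.7 for the others, and the sums gave 58.9 and 74.9. Edits of any kind were also fewer per read, with medians of 0.524 per read for collagen clusters of 10 to 29 reads and 1 per read for the others.

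Of the 42 collagen clusters with at least 10 reads, 15 had under 1 conversion per 10 reads, or 35.7%, against 18.1% of all 504 such mRNA exon clusters. At the other extreme 2 of the 42, on emb-9 and col-111, had at least 1 conversion per read, or 4.76%, against 17.3% of the 504. The col-111 cluster, 51 nt in exon 3 at chromosome IV, 4655921 to 4655971, had 15 conversions in 10 reads. Among clusters longer than 135 nt, the 95th percentile of all mRNA exon clusters, collagens held 22, which was 27.8% of the collagen clusters, against 4.97% of all 3361. Reads came from all 3 libraries in 63.3% of the collagen clusters, against 44.2% of all, whereas conversions came from at least 2 libraries in 45.6%, against 50.3%.

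**Figure D3:**
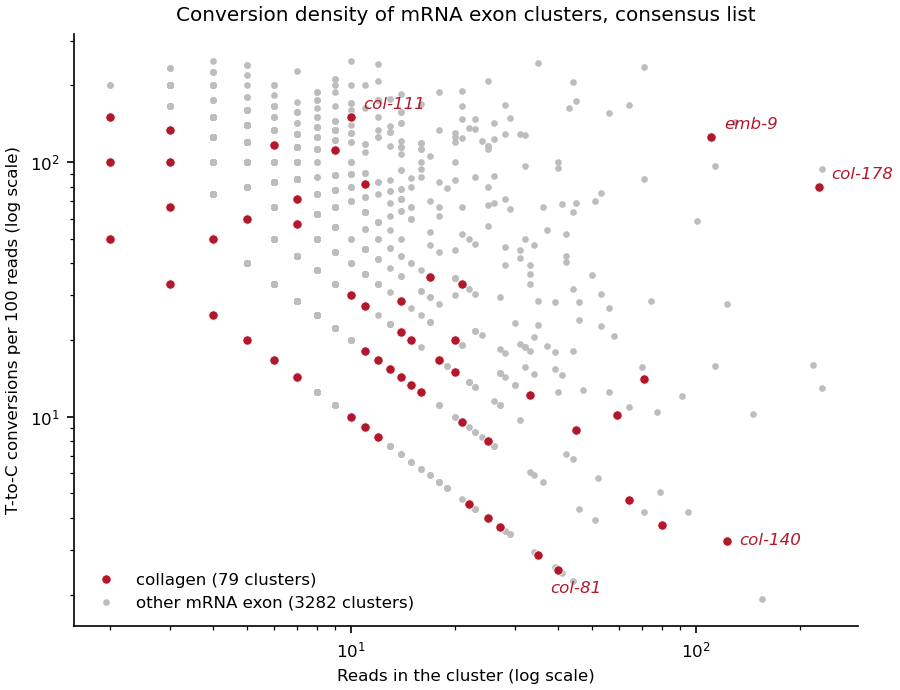
T-to-C conversions per 100 reads against reads for each mRNA exon cluster of the consensus list, both on log scales, for 79 collagen clusters (red) and 3282 others (grey). The col-178 and emb-9 clusters lie at the upper right with 79.8 and 125 conversions per 100 reads, and most other collagen clusters with many reads lie low, down to 2.5 for col-81.

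**Figure D4:**
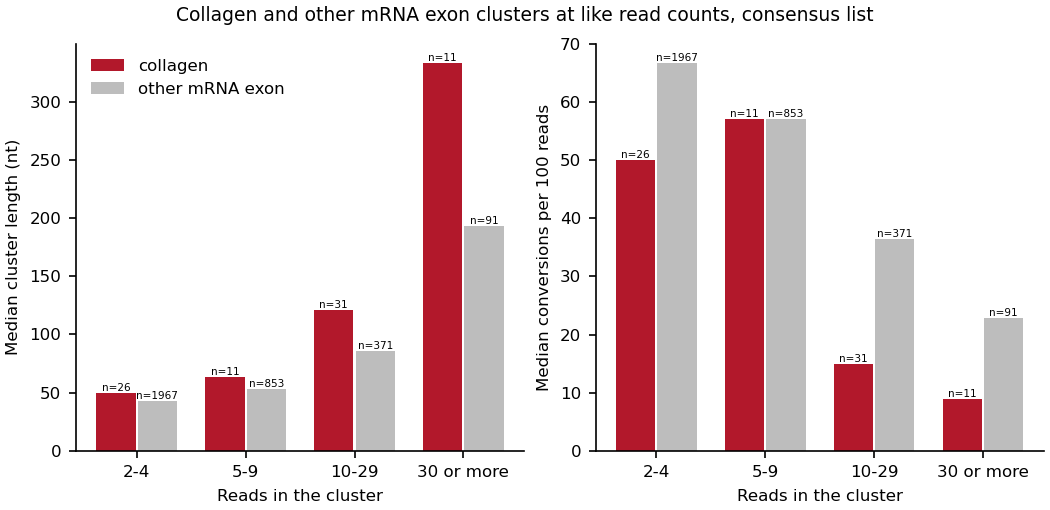
Median cluster length in nt and median conversions per 100 reads of collagen (red, left bar) and other mRNA exon (grey, right bar) clusters of the consensus list, by reads in the cluster, with the number of clusters above each bar. From 10 reads on, the collagen bars are higher for length (121 against 86 nt, and 333 against 193 nt) and lower for conversions per 100 reads (15 against 36.4, and 8.89 against 22.9).

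Summed over clusters, conversions made up 36.4% of the edits in collagen clusters (exact interval 34.0% to 39.0%) and 50.5% in the other mRNA exon clusters (49.9% to 51.2%) of the consensus list. The intervals treat edits as independent, which edits of the same read, position or cluster are not, so they are too narrow. Of the 1457 collagen edits, col-178 held 546 and emb-9 held 256. Per 100 reads, the sums gave 35.1 conversions in collagen clusters and 60 in the other mRNA exon clusters. The clusters of col-178 and emb-9 held most of the collagen conversions. When both genes were left out, a choice made with the values already known, the remaining collagen clusters held 207 conversions in 1171 reads, or 17.7 per 100 reads. No genes were left out of the other mRNA exon clusters in the same way, so this value is not set against theirs. In the library lists the intervals of the collagen share were wide and included the value of the other clusters. T1/V1 replicate 1 had 47.1% (23% to 72.2%) in collagen and 60.1% in other clusters, T1/V1 replicate 2 had 42.9% (24.5% to 62.8%) and 39.7%, and T1 replicate 3 had 36.3% (29.3% to 43.8%) and 40.4%. The direction of this share differed between libraries, and with 17, 28 and 179 collagen edits each value rests on few counts. Conversions per 100 reads were lower in collagen clusters in all 3 libraries, with 12.7 against 38.8 in T1/V1 replicate 1, 27.3 against 34.8 in T1/V1 replicate 2 and 27.4 against 35 in T1 replicate 3. A cluster without any conversion is never listed, and this raises both measures where reads are few.

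Within single libraries, collagen genes had a cluster more often than the genes of the lists at large. In T1/V1 replicate 1, 8 of the 43 members had a cluster, or 18.6%, against 4.48% of all 2367 genes. T1/V1 replicate 2 also had 8, or 18.6%, against 4.35%, while T1 replicate 3 had 21, or 48.8%, against 26.7%. In the pooled lists the shares were near those of all genes, with 90.7% of the members against 91.9% in the consensus list and 60.5%, or 26 genes, against 54.1% in the conservative list. Of the 2367 genes, 2176 had a consensus cluster, so the consensus share was largely set by how the genes were counted. Its nearness to that of all genes is therefore not a result. As a share of mRNA exon reads, collagen clusters took 12% in T1/V1 replicate 1 (63 of 524 reads, exact interval 9.36% to 15.1%) and 8.40% in T1/V1 replicate 2 (44 of 524 reads, 6.17% to 11.1%). These gave a mean of 10.2% ± 2.56 (SD, n = 2). In T1 replicate 3 the share was 5.13% (237 of 4616 reads, 4.51% to 5.81%), below both T1/V1 values. The T1 list was also larger, with 797 mRNA exon clusters against 117 and 116 in the T1/V1 lists, and the part of list size in this share was not tested. With 1 T1 library and an adapter that changed with the nuclease, no test between nucleases was made.

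The number of collagen genes found again in a second library was small, though their share was larger than that of all genes of the lists. Clusters anywhere on the gene were listed in at least 2 libraries for 9 of the 43 members, or 20.9%, against 3.68% of all genes, and in all 3 libraries for col-181 and col-184 only, or 4.65% against 0.634%. The median number of consensus reads was also higher for collagen genes, and the part of read count in this recurrence was not tested. Without T1 replicate 3 the count over at least 2 libraries was 3 genes and without either T1/V1 library it was 5, and the members with a cluster in any library numbered 13 without T1 replicate 3, against 26. On col-181 T1/V1 replicate 1 had 7 reads, T1/V1 replicate 2 had 2 and T1 replicate 3 had 51. For col-184 they were 6, 2 and 4 in the same order. On col-20 T1/V1 replicate 1 had 29 reads, T1/V1 replicate 2 had 13 and T1 replicate 3 had no cluster, unlike col-129, which had none in the T1/V1 replicates and 37 reads in T1 replicate 3. With clusters in T1/V1 replicate 2 and T1 replicate 3, col-124 had 10 and 37 reads, col-122 had 10 and 30, and col-139 had 2 and 2. With clusters in T1/V1 replicate 1 and T1 replicate 3, col-80 had 3 and 4 reads, beside col-19 and emb-9 given above. These are reads in listed clusters, and a gene without a listed cluster may still have had reads.

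At the level of positions, agreement between libraries was lower. Clusters from different libraries shared at least 1 base on 5 genes, col-20, col-122, col-124, col-181 and col-184, which is 11.6% of the members against 1.9% of all genes. The clusters of col-20 in the T1/V1 replicates, 260 and 108 nt long, shared 108 bases. On col-181 the T1 replicate 3 cluster of 439 nt contained both T1/V1 clusters. None of the 6 overlapping pairs had the same main crosslink position. Against the pooled consensus list, a consensus cluster was overlapped by 4 of 8 collagen clusters of T1/V1 replicate 1, by 7 of 9 of T1/V1 replicate 2 and by 24 of 26 of T1 replicate 3. The main crosslink position was the same for 0, 0 and 16 of these. For other mRNA exon clusters, 50 of 109, 45 of 107 and 503 of 771 overlapped, with the same position in 11, 3 and 328. The consensus list contains the reads of these libraries, so this comparison is not independent.

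**Figure D5:**
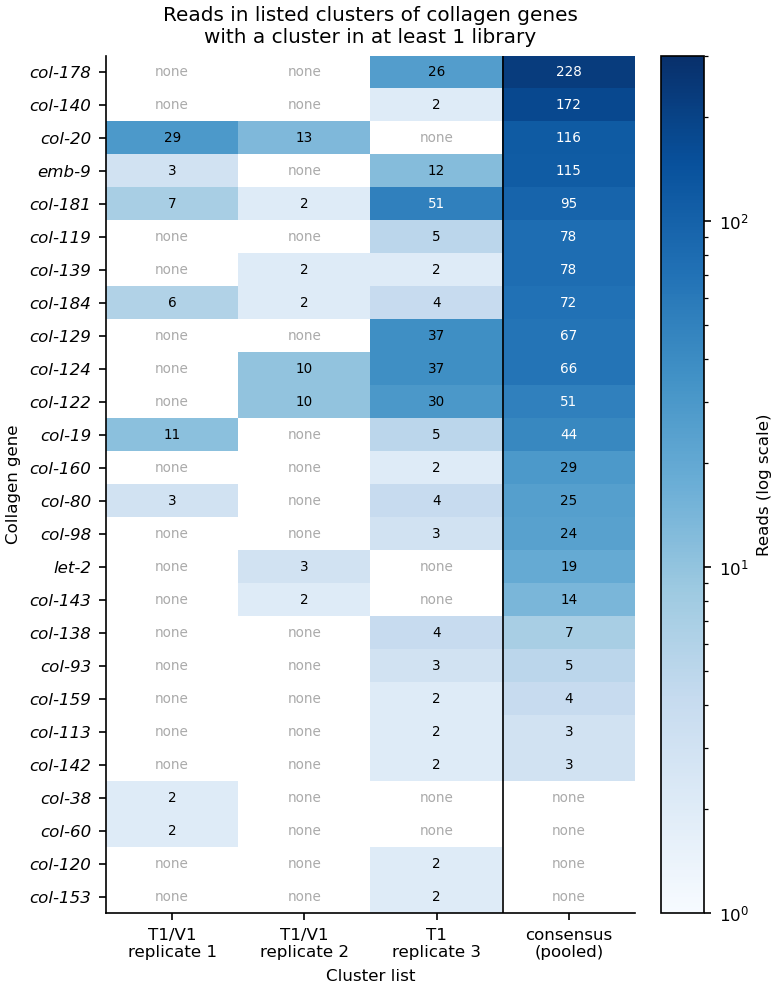
Reads in listed clusters of the 26 collagen genes with a cluster in at least 1 library, by library and in the pooled consensus list, coloured on a log scale, with "none" where no cluster was listed. Only col-181 and col-184 have a cluster in all 3 libraries, and the pooled reads far exceed the sum over libraries on col-178 and col-140.

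Collagen clusters of the 3 library lists held 344 reads in all, which is 22.7% of the 1514 in the consensus list, near the 24% of the other mRNA exon clusters. Of the 39 consensus genes, 17 had no cluster in any library list, or 43.6%, against 74.8% of all 2176 consensus genes. The genes col-81, with 62 consensus reads, and col-106, with 40, were among them. Conversely, col-38 and col-60 in T1/V1 replicate 1 and col-120 and col-153 in T1 replicate 3 had a cluster of 2 reads each and none in the pooled lists. Which library gave which pooled read is not recorded, so pooled values carry no SD.

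Genes that act on collagens were also found in the consensus list. Of 24 names of collagen modifying and processing enzymes, 22 were in the name table and 6 had a consensus cluster, with 100 reads and 62 conversions together. Beside medians of 18 reads for the collagen genes and 5 for the 2137 other genes of the list, these 6 genes had a median of 19. They were pdi-2, which encodes the protein disulfide isomerase subunit of prolyl 4-hydroxylase, with 23 reads, pdi-1 with 21, the calreticulin gene crt-1 with 20, the thioredoxin-like gene dpy-11 with 18, pdi-3 with 16, and the dual oxidase gene bli-3 with 2. Of 22 basement membrane components and receptors, 7 had a consensus cluster, with 47 reads together and a median of 7. The perlecan gene unc-52 led these with 17 reads in 5 clusters, and the SPARC gene ost-1, the hemicentin gene him-4 and the dystroglycan gene dgn-1 had 7 each. Of the 10 procollagen secretion names, 9 were in the name table, and the COPII coat gene sec-23 had 2 consensus reads and the others had none. Of 17 other cuticle components, 16 of them in the name table, noah-1 and fbn-1 had 6 reads each. Of 5 names listed as collagens outside the membership rule, lon-3, mec-5, cle-1, rol-8 and ram-4, no cluster in any list carried one, but ram-4 was not in the name table, and its transcript may be listed under another name. Over all genes of the lists, 91.9% had a consensus cluster by the way the lists were made, so no share of these gene lists was set against it. The share of all genes of the name table with a consensus cluster was not computed. These counts therefore do not tell whether such genes were found more or less often than others.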

How the data were processed

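Clusters were called by the authors at an estimated false discovery rate of 5%, per the attributes of the deposited lists. Bowtie2 2.1.0 is named in the submitters' processing notes. No source used here states the genome build, and coordinates are those of the deposited lists. Per deposited cluster the authors list raw counts (conversions, reads, edits), not normalised, and the authors' entropy score, which was not analysed. Its ccr attribute was taken as the main crosslink position. Consensus clusters had reads from at least 2 libraries, and conservative ones conversions from at least 2.

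An mRNA exon cluster was one annotated by the authors as coding transcript and exon, without a noncoding RNA, outside the mitochondrial genome. All 43 members were in the RefSeq name table. Overlap was at least 1 shared base on the same strand. Intervals are exact (Clopper-Pearson, and order statistics for medians) at 95%. The members and lists were chosen with earlier results of these data known. Genes named were the 12 with most consensus reads, those in 2 or more libraries, those with mutant-derived names, type IV chains, and extremes of conversions among genes with 20 or more edits. A few others (col-106, col-111, col-38, col-60, col-120 and col-153) were named after their values were seen. The strata of read counts, the limits of 1 conversion per read and per 10 reads, and the length percentile were also set after the data were seen. The planned protein features were not computed, since no sequence was used here. Parsing, overlap and interval code was tested on simulated data. The code ran in Python 3.11.15 with matplotlib 3.10.9, SciPy 1.17.1, numpy 2.4.6 and pandas 2.3.3.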

Additional observations from a re-analysis of the deposited data

How the results depend on the processing

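With the conservative list in place of the consensus list, collagen clusters numbered 36, conversions made up 39.7% of edits, the median length was 106 nt and the median reads 14. With at least 5 reads per cluster the share of mRNA exon reads was 8.09%, the median length 118 nt and the median reads 14, and with at least 2 conversions 51 clusters were left. The collagen share was 1.65% of all reads of the list and 2.35% of clusters, and 3.72% of reads when introns and clusters with a noncoding RNA were added. Both this set and the next were tried only after seeing the data. Without col-178 and emb-9, conversions made up 31.6% of edits. Recurrence in 2 or more libraries fell to 5 genes, against 9, under an overlap of 1 base, of 50% of the shorter cluster, or at least 5 reads per cluster. Without 1 library it ranged from 3 to 5 genes, lowest without T1 replicate 3, and the genes with a cluster in at least 1 library ranged from 13, without T1 replicate 3, to 24, against 26. The T1/V1 share ranged from 8.40% to 12%. No paired analysis was possible because the groups share no replicate number. The median library cluster of a collagen had 3 to 4.5 reads, which limits what single libraries can show.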

Other observations

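A few clusters lay on the strand opposite to collagen genes. In the consensus list, 1 cluster of 51 nt with 3 reads and 6 conversions lay antisense to col-87 (chromosome II, 14091262 to 14091312), with conversions from 2 libraries, and 1 of 63 nt with 2 reads and 2 conversions lay antisense to col-41 on chromosome X. Neither gene had a sense cluster. In T1 replicate 3, a cluster of 57 nt with 2 reads and 2 conversions lay antisense to col-106, which had 40 sense reads in the consensus list.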
